A study of Rattus norvegicus with 9 samples.

Results

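The vehicle cultures were the untreated arm of an experiment on rat hippocampal neurons, and they are described here on their own, as 3 of the 9 libraries of the study. These libraries were taken by their label. Cells were dissociated from hippocampi of wild-type rat fetuses (Rattus norvegicus) at embryonic day 17 and seeded at 40000 cells per cm2 on poly-D-lysine. They were grown for 7 days in vitro in neurobasal medium with B27, without a mitotic inhibitor, and then received vehicle. The other 6 libraries, not used here, came from cultures given 1 nM of PCT (procalcitonin) or of NPCT, the aminoprocalcitonin peptide cleaved from it, for 24 h. How long vehicle was present is not given in the labels. The study's methods state that RNA of triplicates was pooled, while the labels number 3 replicates, so the SD of 3 libraries given below may measure technical spread only.

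Dissociated hippocampal culture is a standard way to grow principal neurons outside the brain. Pyramidal cells and granule cells, which release glutamate, are the main neurons of the hippocampus, and a smaller set of interneurons releases GABA. The tissue also holds astrocytes, which clear transmitter and supply metabolites, oligodendrocyte precursors, microglia, vessels and progenitors that still divide in the fetus. B27 in serum-free medium favours neurons, and a mitotic inhibitor, absent here, is the usual means of holding back glia. The question put to the vehicle libraries was which genes these cultures express at baseline, and whose genes they are.

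Levels are FPKM, the fragments on a gene per kilobase of its length, scaled to a common number of fragments counted in the library. The 3 libraries held 15360559, 15027542 and 14527524 fragments on genes, so that 1 FPKM on a gene of 1 kilobase stood for 15.3, 14.9 and 14.5 fragments. Depth was thus alike in the 3 libraries. Of 34092 genes in the table, 19690, 19468 and 19593 were above 0, and 12540 (36.8%) were listed at 0 in every vehicle library. A mean of at least 0.5 FPKM was reached by 16019 genes, among them 13538 of the 22250 protein-coding genes (60.8%). Higher floors thinned the list quickly, with 7589 genes at 10 FPKM or more, 712 at 100 and 28 at 1000. The 10 highest genes took 12.1% ± 0.696 (SD, n = 3) of the summed FPKM and the 1000 highest took 55.5% ± 0.380.

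The 6 genes used to label cell types were all present, at means from 4.55 FPKM for Aif1 to 776 FPKM for Gfap. Gfap, the intermediate filament of astrocytes (chr10:90990762-90999506, Rnor_6.0), was listed at 828, 765 and 734 FPKM. Map2, a microtubule-associated protein of dendrites (chr9:73319710-73462972), stood at 194, 195 and 195 FPKM. Rbfox3, which encodes the neuronal nuclear antigen NeuN, stood at 28.8, 31.9 and 31.2 FPKM. These neuronal and astrocytic labels were above the other 3 labels in every library, in the order Gfap, Map2 and Rbfox3. Mki67, made by cycling cells, was at 8.97, 9.42 and 8.42 FPKM, and Mbp, a protein of the myelin sheath, at 7.99, 10.03 and 8.79 FPKM. Aif1, the microglial calcium-binding protein Iba1, was at 5.29, 2.76 and 5.61 FPKM, on 146, 74 and 146 fragments. Mki67, Mbp and Aif1 were thus detected in every library, at a small part of the level of Gfap and Map2, and the order of Mki67 and Mbp differed between libraries. A low level in a bulk library may come from few cells or from little RNA per cell, and these cannot be told apart.

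To compare cell types by more than single genes, 23 lists of marker genes were read, in which 305 of 319 entries were found, and the level of a list was the median of its members in each library. The astrocyte list was highest in every library, at 151, 149 and 142 FPKM. The pan-neuronal list came next, at 106, 105 and 108 FPKM. The astrocyte list thus lay 1.38-fold above the neuronal list, a log2 difference of 0.47 ± 0.07 (SD, n = 3), and the libraries of the lists did not overlap. This order holds for the median only. With a geometric mean over members and a pseudocount of 0.1, the difference was -0.31, and with a pseudocount of 1 it was -0.20. The oligodendrocyte precursor list was next by the median, at 27.7, 29.7 and 27.4 FPKM, followed by the glutamatergic list. The lists of GABAergic neurons and of radial glia came after it, and the radial glia list was the higher of these in replicate 1 only (19.1 against 17.4 FPKM). With a geometric mean (pseudocount 1), radial glia were at -1.65 from the neuronal list on the log2 scale. That was above precursors (-1.73), glutamatergic neurons (-1.83) and GABAergic neurons (-2.62). Lists of dividing cells lay near 8 FPKM, and microglia, at 4.31, 2.78 and 4.37 FPKM, came after them in each library. Below 1 FPKM were mature oligodendrocytes, pericytes and endothelium, and the lists for blood and for hindbrain had a median of 0. The level of a list depends on the genes chosen for it, so this order is not one of cell numbers.

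**Figure D1:**
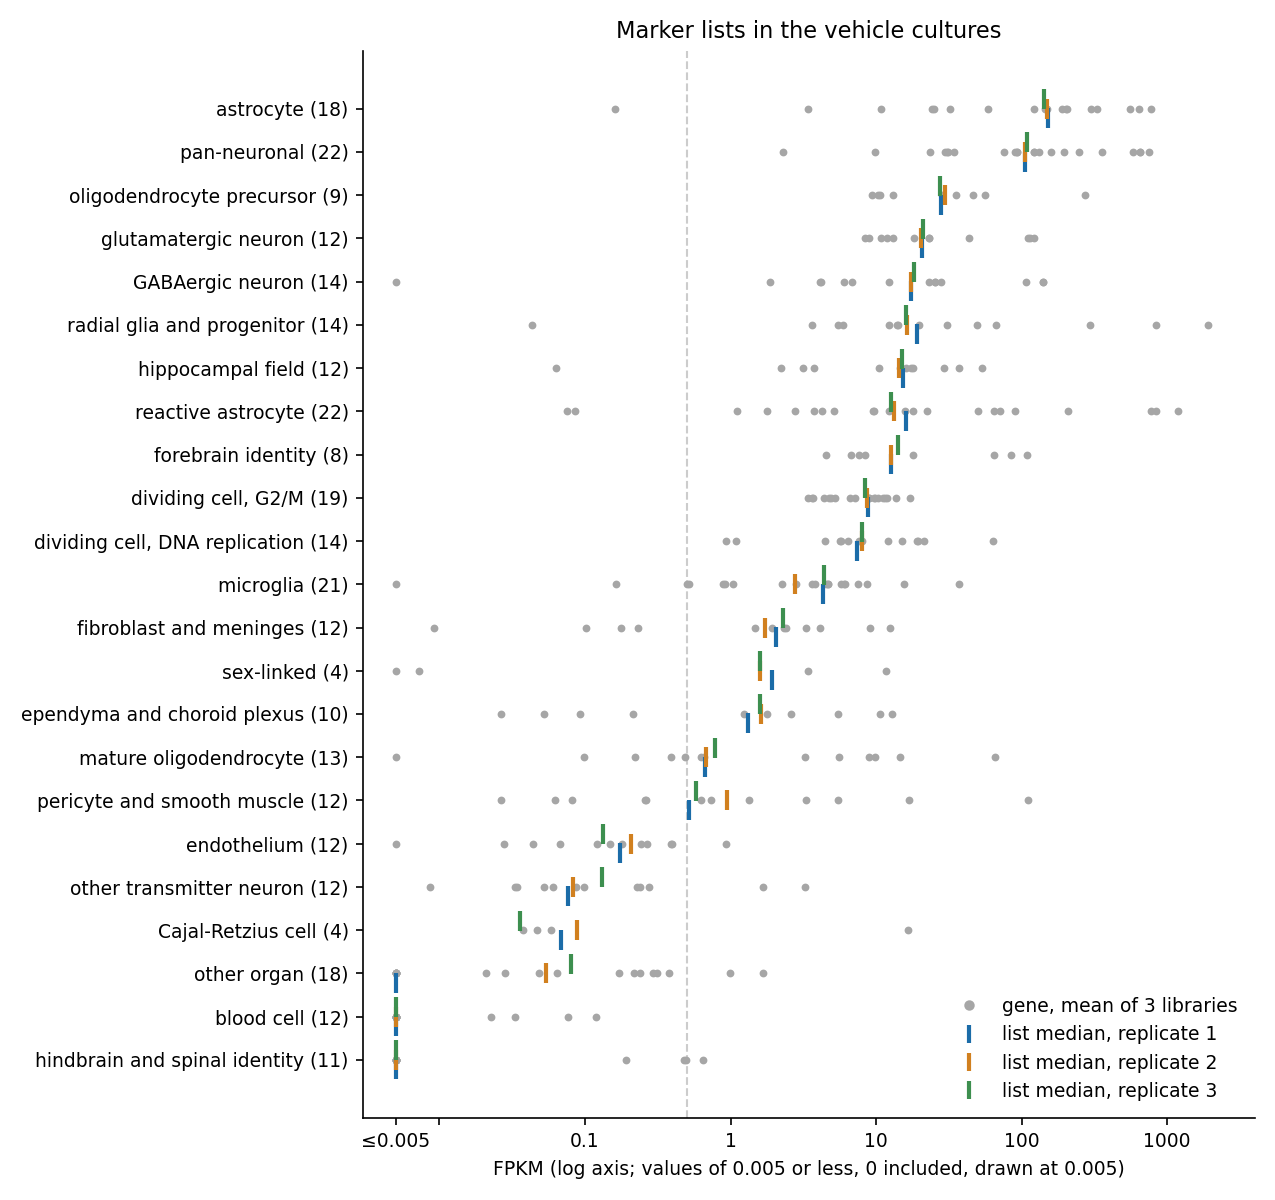
Level of each marker list in the vehicle cultures, in FPKM on a log axis. Grey points are genes (mean of 3 libraries), coloured ticks are the list median in each library, the number of genes found is in brackets, and the dashed line marks 0.5 FPKM, with values at or under 0.005 drawn at 0.005; astrocyte and pan-neuronal lists lie above 100 FPKM, blood and hindbrain lists at the bottom.

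Genes used by all neurons were present in full. All 22 pan-neuronal genes were above 1 FPKM, 20 were above 10 and 11 above 100. Stmn2, a microtubule regulator of growing axons, was highest, at 743, 768 and 756 FPKM. Uchl1, a neuronal ubiquitin hydrolase, was listed at 604, 656 and 691 FPKM, and Tubb3, the neuronal beta-tubulin, at 623, 640 and 686 FPKM. Gap43, the growth-cone protein, had 583 ± 12.3 FPKM, and Dcx, the doublecortin of young migrating neurons, 158 ± 1.70 FPKM. Of these 5 genes, Uchl1 varied most between the libraries relative to its mean. The heavy neurofilament Nefh was lowest, at 2.29 ± 0.255 FPKM, while the light chain Nefl had 89.6 ± 0.986 FPKM. Eno2, the neuronal enolase, was the least steady member, with 12.1, 16.0 and 1.48 FPKM.

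Genes of both main transmitter classes were detected. The glutamatergic list stood at 20.6, 20.4 and 20.9 FPKM and the GABAergic list at 17.4, 17.3 and 18.4 FPKM. The log2 difference was 0.22 ± 0.03 in favour of the glutamatergic genes, or 1.17-fold, and the glutamatergic list was the higher in every library. The order and the size rest on the median over all members: with members of at least 0.5 FPKM only the log2 difference was -0.17, and with a geometric mean (pseudocount 0.1) it was 1.09, or 2.13-fold. By fragments not divided by length it was 0.82, or 1.77-fold. Among the 12 glutamatergic genes, the highest were the calcium kinase Camk2a (122 ± 8.35 FPKM), the vesicular transporter Slc17a7 (114 ± 2.67 FPKM) and the transcription factor Neurod6 (111 ± 1.21 FPKM). The lowest were the cortical factors Bcl11b, at 8.88 ± 0.585 FPKM, and Emx1, at 8.43 ± 0.140 FPKM.

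GABAergic genes spread more widely than glutamatergic ones. The peptide gene Sst, a product of an interneuron class, had 140 ± 5.55 FPKM. Cck, a peptide of basket cells and of some principal cells, had 107 ± 12.5 FPKM. The synthesis enzymes Gad1 and Gad2 and the vesicular transporter Slc32a1 lay close together, at 27.7 ± 1.20, 25.4 ± 1.35 and 23.2 ± 0.806 FPKM. Pvalb, the calcium buffer of fast-spiking interneurons, was at 1.94, 1.75 and 1.93 FPKM. Npy, a peptide of hippocampal interneurons, was listed at 0 in all 3 libraries, and its span lies inside that of no other gene of the table. Some ribosomal protein genes, which every cell uses, were listed at 0 as well, so a 0 in this table cannot be read as absence.

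Markers of other transmitter systems were close to the bottom. Of 12 such genes, 2 reached 0.5 FPKM, namely the vesicular monoamine transporter Slc18a2 (3.23 ± 0.320 FPKM) and the choline transporter Slc5a7 (1.67 ± 0.424 FPKM). Th, which makes the dopamine precursor, was listed at 0.222, 0.0760 and 0 FPKM, and Chat, which makes acetylcholine, at 0, 0.0256 and 0 FPKM. Of the Cajal-Retzius genes, Reln, a secreted guide of cortical layering that interneurons also make, was at 16.6 ± 0.665 FPKM, and the means of the other 3 were below 0.1 FPKM.

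Genes of forebrain identity were present, and those of more caudal regions were mostly listed at 0. All 8 forebrain genes passed 0.5 FPKM, among them the transcription factors Lhx2 (85.1 ± 4.82 FPKM) and Nr2f1 (64.2 ± 1.41 FPKM). Of 11 rows for hindbrain and spinal cord genes, 7 were listed at 0 in every library, all 6 Hox rows among them. The highest was En2, a midbrain and cerebellar factor, at 0.652 ± 0.0435 FPKM. Of 12 genes of the hippocampal fields, 11 reached 0.5 FPKM. The dentate factor Prox1 had 14.5 ± 0.481 FPKM, the CA1 genes Wfs1 and Pou3f1 (the latter listed as a pseudogene) had 17.3 ± 2.24 and 10.4 ± 1.80 FPKM, and Grik4 and Bok, enriched in CA3, had 16.0 ± 2.04 and 29.2 ± 3.89 FPKM. Pcp4, a small regulator protein of CA2, was the highest of these, at 53.7 ± 7.66 FPKM, whereas Rgs14 and Amigo2, also enriched in CA2, had 3.12 ± 0.615 and 3.77 ± 0.612 FPKM. The dentate gene C1ql2 had 2.21 ± 0.770 FPKM. Dsp, a desmosome gene of the dentate gyrus, was lowest, at 0.0409, 0.0912 and 0.0578 FPKM.

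Pairs of related genes, some of which replace each other as neurons mature, did not all lean towards the earlier or the later member. The libraries are bulk RNA of mixed cells, so these ratios are not read as a stage of the neurons. Grin2b, the NMDA receptor subunit that prevails early in life, was listed at 17.3, 14.8 and 18.1 FPKM against 4.21, 4.49 and 4.14 FPKM for the later Grin2a. The early subunit was thus 3.90-fold the higher, a log2 ratio of 1.96 ± 0.22. In other pairs the later member led. The chloride exporter Slc12a5 (27.0, 30.5 and 31.4 FPKM) exceeded the importer Slc12a2 (16.8, 17.2 and 14.01 FPKM) 1.86-fold. The scaffold Dlg4, which encodes PSD-95, exceeded Dlg3 6.03-fold, at 127 ± 4.80 against 21.1 ± 0.830 FPKM. Slc17a7 exceeded Slc17a6, the vesicular glutamate transporter of young and of subcortical neurons, 10.6-fold. The sodium channel Scn2a exceeded the fetal Scn3a 1.94-fold, at 30.1 ± 0.644 against 15.5 ± 0.291 FPKM, and this ratio varied least between the libraries (SD 0.0057 on the log2 scale). Gad1 and Gad2 were nearly level, with a log2 ratio of 0.19, 0.05 and 0.14 in the 3 libraries. In each of these 6 pairs, the same member was the higher in all 3 libraries.

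Receptor genes for both transmitters were read from lists added after the marker levels were known. All 18 glutamate receptor subunit genes had a mean of at least 0.5 FPKM, led by the AMPA receptor subunits Gria2 (102, 105 and 98.7 FPKM) and Gria1 (61.7, 62.6 and 62.4 FPKM). Grin1, the obligatory NMDA receptor subunit, had 40.2 ± 1.54 FPKM. Of 12 GABA-A receptor subunit genes, 11 were above 1 FPKM. Gabra2 and Gabra5, the alpha subunits common in the young hippocampus, had 82.5 ± 1.80 and 81.3 ± 2.84 FPKM, while the cerebellar Gabra6 had 0.0531 ± 0.0276 FPKM. The calcitonin family, to which the peptides of the treated arms belong, was low. Calca, the gene of procalcitonin itself, had 0.449, 1.64 and 0.793 FPKM on 9, 32 and 15 fragments. By the study, splicing of Calca also yields a transcript of the calcitonin gene-related peptide, and a value per gene does not separate the transcripts. Calcrl, a receptor of this family, had 5.13 ± 0.398 FPKM and its partner Ramp2 5.97 ± 1.13 FPKM, but Calcr, the calcitonin receptor, only 6 or 7 fragments per library.

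Most astrocyte genes were detected at high levels. Of 18, 17 were above 1 FPKM, 16 above 10 and 11 above 100. After Gfap, the highest were the glutamate transporter Slc1a3 (637 ± 25.1 FPKM) and the glutamine synthetase Glul (554 ± 17.4 FPKM). Aldoc, the brain aldolase, S100b, a calcium-binding protein, and Aqp4, the water channel of the end-feet, had 331 ± 4.52, 299 ± 8.34 and 201 ± 8.70 FPKM. The lowest were Slc7a10, a serine transporter of mature astrocytes, at 3.39 ± 0.316 FPKM, and Gjb6, at 0.217, 0.0744 and 0.192 FPKM on 6, 2 and 5 fragments. The 2 astrocyte connexins of the list were thus far apart, since Gja1 had 145 ± 4.98 FPKM.

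Genes named for reactive astrocytes held a few of the highest transcripts of the cultures and several very low ones. Lcn2, a secreted iron-siderophore carrier (chr3:11414186-11417546, Rnor_6.0), was listed at 1321, 1025 and 1205 FPKM, rank 22 of all genes. Vim, the filament vimentin that radial glia also use, had 836 ± 45.9 FPKM, and the complement inhibitor Serping1 209 ± 30.6 FPKM. The complement factor C3 had 99.2, 76.0 and 94.4 FPKM, and the copper oxidase Cp 83.0, 60.9 and 68.9 FPKM. Of the 20 genes of the list above 0.5 FPKM, 16 were highest in replicate 1, as were 31.1% of all genes above that floor, and 8 were lowest in replicate 2, Lcn2, Serping1, C3 and Cp among them, against 32.6% of all genes. Serpina3n, a protease inhibitor often used as a reactive marker, was at 0.130, 0.0573 and 0.0393 FPKM, and Srgn, a proteoglycan core, at 0.0858 ± 0.0446 FPKM. The median of the 22 genes was 16.0, 13.2 and 12.6 FPKM.

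Progenitor and precursor genes were well above those of mature glia other than astrocytes. Fabp7, a fatty acid carrier of radial glia and young astrocytes (chr20:40769586-40773349), had 1932, 1948 and 1826 FPKM and ranked 15 of all genes. The phosphatase Ptprz1, of radial glia and oligodendrocyte precursors, had 294 ± 21.3 FPKM. In contrast, Eomes, the factor of intermediate neuronal progenitors, was near the floor, at 0, 0.0959 and 0.0329 FPKM, and the stem-cell gene Prom1 had 3.62 ± 0.0554 FPKM. Of the oligodendrocyte lineage, all 9 precursor genes found were above 5 FPKM. Olig1 and Olig2, the lineage factors, had 272 ± 11.3 and 55.9 ± 1.16 FPKM, and the precursor receptors Gpr17 and Pdgfra 46.3 ± 5.85 and 35.4 ± 1.73 FPKM. Cspg4, the NG2 proteoglycan, and the factor Nkx2-2 were lowest, at 10.3 ± 0.774 and 9.40 ± 0.732 FPKM.

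Mature oligodendrocytes were represented unevenly. Cnp, an enzyme that precursors also make, had 64.0, 65.2 and 66.4 FPKM, and the myelin protein Mog had 9.81 ± 0.641 FPKM. The late myelin genes Mobp and Opalin were at 0.0990 ± 0.0718 FPKM and listed at 0, in that order. The median of the precursor list was 39.9-fold that of the mature list, a log2 difference of 5.32 ± 0.17. With members of at least 0.5 FPKM only this ratio was 3.91-fold, and with a geometric mean it was 16.0-fold (pseudocount 0.1) or 7.91-fold (pseudocount 1).

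Genes of dividing cells were all detected. All 19 genes of G2 and mitosis were above 3 FPKM and none reached 20. The highest were Top2a, the topoisomerase of mitotic chromosomes (17.5, 17.2 and 16.5 FPKM), Cdk1, the mitotic kinase (13.8 ± 1.25 FPKM), and cyclin B1, Ccnb1 (11.9 ± 0.869 FPKM). Bub1b, a spindle checkpoint kinase, and Cenpe, a kinetochore motor, were lowest, at 3.43 ± 0.416 and 3.65 ± 0.396 FPKM. These 19 genes thus lay within a narrow range. All 14 genes of DNA replication were above 0.5 FPKM, from Cdc45, a helicase factor (0.929 ± 0.185 FPKM), and Cdc6, which licenses origins (1.10 ± 0.224 FPKM), to the sliding clamp Pcna (64.1 ± 5.71 FPKM), which also serves in repair. The G2/M list lay 12.4-fold below the neuronal list and 2.30-fold above the microglial one, or 4.77-fold above it by fragments not divided by length.

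Microglial genes were present at low levels, and most were lowest in 1 library. Of 21 found, 19 reached 0.5 FPKM and 2 reached 10. Among the latter was the Fc receptor chain Fcer1g (15.5 ± 1.69 FPKM). Csf1r, the receptor that microglia need to survive, was listed at 4.31, 2.78 and 4.37 FPKM, and the complement subunit C1qc at 6.82, 3.63 and 6.72 FPKM. Both were lowest in the same library as Aif1. Among the 19 genes above 0.5 FPKM, 13 had their lowest level in replicate 2, whereas 32.6% of all genes above that floor did. Over the 19 genes, the mean of replicates 1 and 3 was 1.25-fold the level in replicate 2 (median). Sall1 and Spi1, microglial transcription factors, did not follow, at 8.73 ± 0.0639 and 2.25 ± 0.167 FPKM. P2ry12, the receptor of resting microglia, had 0.572, 0.589 and 0.386 FPKM and Siglech was listed at 0. The microglial list lay -4.83 on the log2 scale from the neuronal list, -4.63 without replicate 2, and -6.14 by fragments not divided by length.

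Endothelial and blood genes were near or at 0, while genes of fibroblasts and meninges were detected at low levels. Of 12 endothelial genes found, Kdr, a receptor of the vascular growth factor, was the only one above 0.5 FPKM, at 0.885, 1.04 and 0.883 FPKM. Tie1, a receptor of the endothelium, was at 0.0439 ± 0.0139 FPKM, and the tight junction gene Cldn5 was listed at 0. Cldn5 lies within the span of Cdc45, and whether fragments were counted by strand is not given in the sources used here. Among mural genes, Tagln, an actin-binding protein, stood out with 112, 115 and 105 FPKM, yet Acta2, the smooth muscle actin, had 0.656, 1.11 and 0.447 FPKM and Rgs5, a pericyte gene, 0.0821 ± 0.00237 FPKM. Tagln was far above every other mural gene, the next being the receptor Notch3 at 16.9 ± 0.578 FPKM. Of 12 genes of fibroblasts and meninges, 8 reached 1 FPKM, as did 57.0% of all protein-coding genes. That count is thus not read as a trait of these genes. Col1a1 had 4.14 ± 0.117 FPKM, and the proteoglycan Bgn was the highest fibroblast gene, at 12.5 ± 2.14 FPKM. Of 12 blood genes none reached 0.5 FPKM, and the hemoglobin genes had at most 0.234 FPKM. Ttr, the thyroxine carrier of the choroid plexus, had 10.6 ± 1.07 FPKM, but Kl, another gene of that epithelium, 0.0526 ± 0.0462 FPKM. Among 18 genes of other organs, the heart myosin Myh6 was highest, at 1.68 ± 0.333 FPKM. Transcripts of the Y chromosome were found, as Eif2s3y (12.1, 12.3 and 10.6 FPKM) and Kdm5d (3.82, 3.19 and 3.16 FPKM), in each library, whereas Ddx3y and Usp9y had at most 0.0218 FPKM.

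The most abundant nuclear transcripts included genes of the cytoskeleton, of translation and of glia. Tmsb4x, which encodes the actin-binding peptide thymosin beta 4 (chrX:28593405-28595395, Rnor_6.0), was highest, at 3351, 3370 and 3298 FPKM. Actb, beta-actin, had 2783 ± 61.4 FPKM, the elongation factor Eef1a1 2394 ± 11.7 FPKM and the tubulin Tuba1a 2368 ± 22.9 FPKM. Of the 20 highest nuclear genes, 5 encode actins or tubulins (Actb, Actg1, Tuba1a, Tubb2b and Tubb5), and the actin-severing Cfl1 was also among them. Cst3, a secreted protease inhibitor, had 1936, 1890 and 2043 FPKM, and Apoe, the lipid carrier of astrocytes, 1258, 1289 and 1429 FPKM. Among the metal-binding metallothioneins, Mt2A had 1477, 1398 and 1257 FPKM and Mt3, the brain form, 1201, 1226 and 1165 FPKM. Also among the 20 were Ckb (creatine kinase), Scd2 (a fatty acid desaturase), Ywhae (a 14-3-3 protein), Nnat (neuronatin) and Rplp0 (a ribosomal protein), between 886 and 1059 FPKM. Ranked by fragments, without division by length, 9 of these 20 genes remained among the 20 highest.

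**Figure D2:**
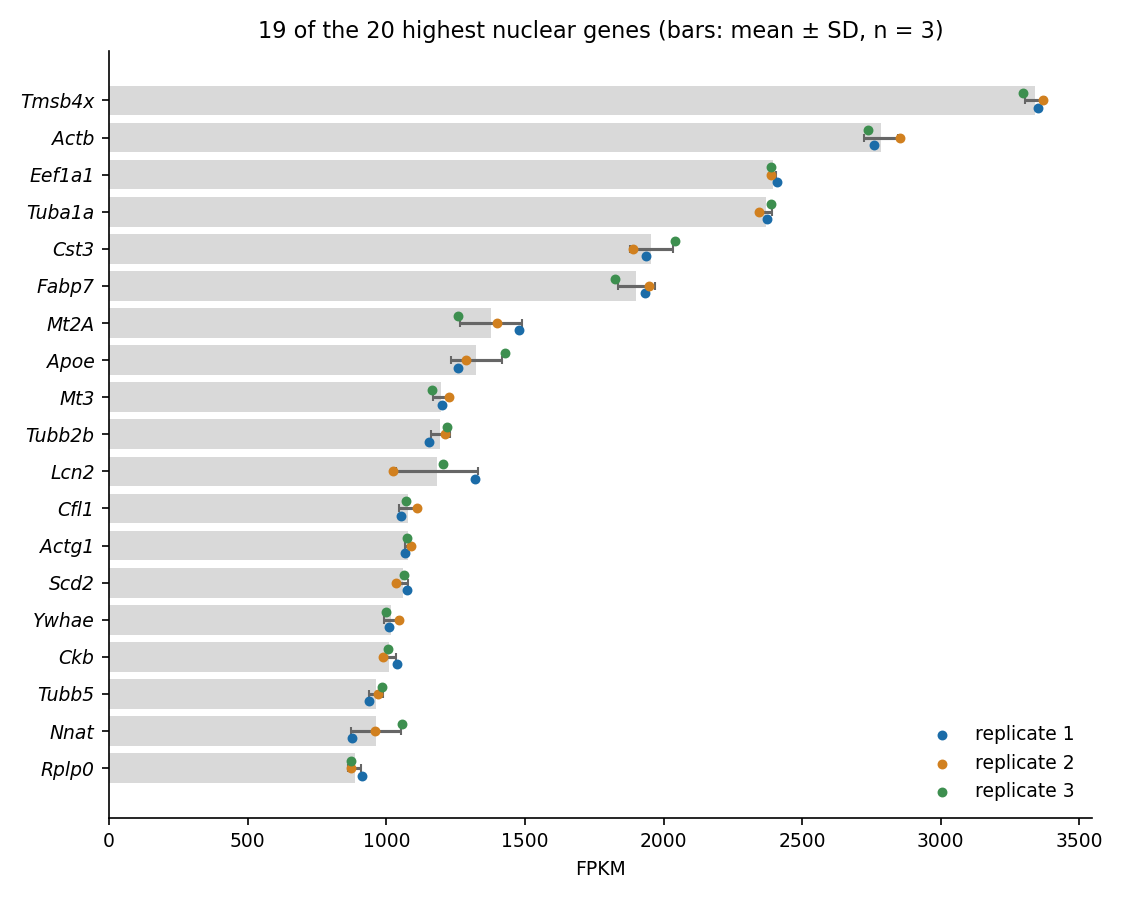
Of the 20 nuclear genes of at least 200 bases with the highest mean, 19 are shown, in FPKM from 0. Bars and error bars are mean ± SD of 3 libraries and points the single libraries; Lcn2 has the widest spread (1025 to 1321 FPKM) and Actg1 and Eef1a1 the narrowest.

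Of 1456 genes that the table assigns to a transcription factor family, 953 (65.5%) reached 0.5 FPKM, but families differed. Zinc finger genes of the C2H2 class were above that floor in 387 of 482 cases (80.3%) and basic leucine zipper genes in 44 of 52 (84.6%). Homeobox genes, many of which mark body regions, were above it in 50 of 222 (22.5%) and forkhead genes in 14 of 39 (35.9%). The highest factors were Ybx1, an RNA- and DNA-binding cold shock protein (392 ± 19.6 FPKM), Atf5, a stress factor of neural progenitors (370 ± 7.05 FPKM), and Olig1. Lhx2 was the highest homeobox gene.

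The 37 genes on the mitochondrial chromosome held 12.4% ± 0.793 of the summed FPKM but 5.44% ± 0.352 of the fragments. COX1, ATP6 and COX3, subunits of cytochrome oxidase and of the ATP synthase, were the 3 highest genes of the libraries, at 9103, 10149 and 8520 FPKM for COX1. Replicate 2 had the highest level of each of the 3. ND4, a subunit of complex I, was lower than the protein-coding genes on either side of it, ND4L and ND5, at 231, 356 and 331 FPKM. Among nuclear chromosomes, chromosome 1 had the largest share, at 10.4% ± 0.213 of the FPKM with 1975 of its 4271 genes above 0.5 FPKM, and chromosome 10 followed with 7.98% ± 0.0870. The X chromosome held 3.50% ± 0.0186, with Tmsb4x as its highest gene, and the Y chromosome 0.00538% ± 0.000524.

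**Figure D3:**
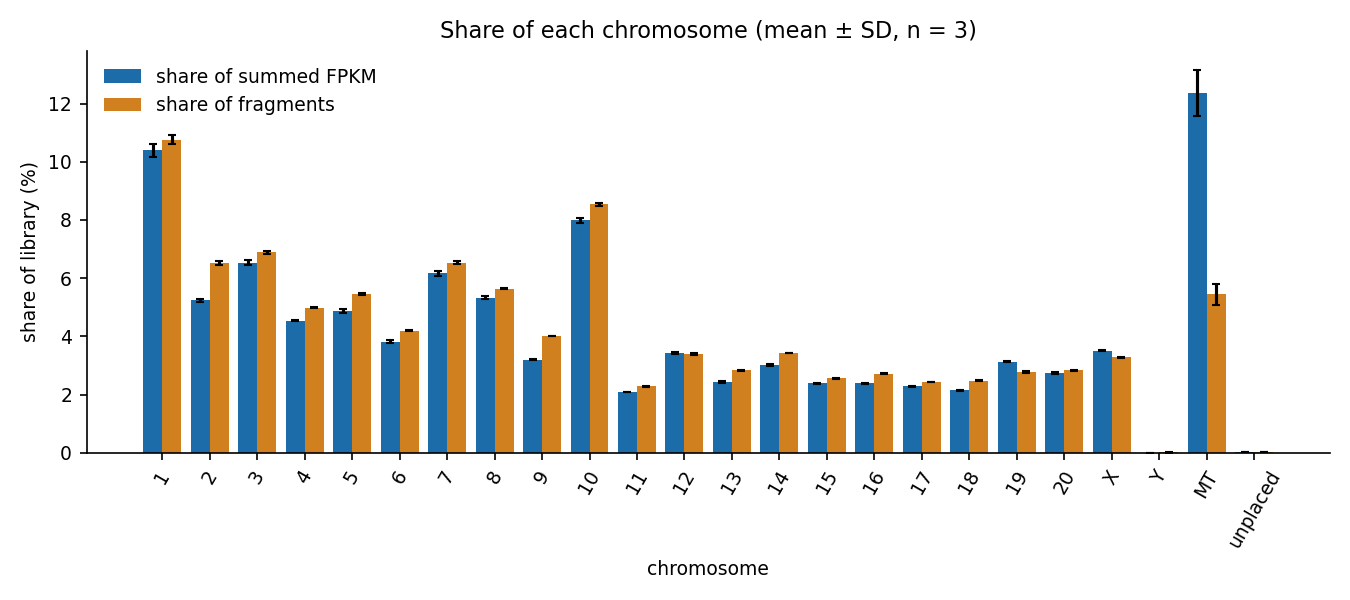
Share of each chromosome in the vehicle libraries, in percent of the summed FPKM and in percent of fragments (mean ± SD, n = 3). The mitochondrial genome has 12.4% of the FPKM and 5.44% of the fragments, while the nuclear chromosomes differ less between the measures.

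Protein-coding genes held 95.4% ± 0.0528 of the FPKM. Gene models assembled by the authors, without a symbol, followed with 1.14% ± 0.0261. Of these 1209 models, 988 were above 0.5 FPKM, against 16019 of all 34092 genes. A model assembled from reads exists only where reads were found, so that count is not read as a result. Most long intergenic RNAs were under the floor, with 286 of 3090 above 0.5 FPKM (9.26%), and their highest member was AABR07070131.1 (217 ± 3.89 FPKM). The highest row called a pseudogene was Ubb, the name of a polyubiquitin gene, at 869 ± 2.53 FPKM, and the highest miscellaneous RNA was RF02266, of 68 bases on the X chromosome, at 693, 601 and 556 FPKM. Such short rows weigh more in FPKM than in fragments. Genes of microRNA held 0.617% ± 0.0392 of the FPKM but 0.0252% ± 0.00170 of the fragments.

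In these libraries RNA was selected by its poly(A) tail and, by the labels, cDNA fragments longer than a hairpin were selected, so a value on a microRNA gene is no level of the mature microRNA. Of the 257 microRNA genes above 0.5 FPKM, 87 (33.9%) lay within another gene above that floor on the same strand, against 23.9% of the 1331 below it. The highest with a symbol was Mir770 (chr6:133682957-133683050, Rnor_6.0), at 235, 241 and 248 FPKM on 339, 337 and 338 fragments. Mir568 on chromosome 11 had 177, 253 and 188 FPKM, and Mir186, inside the splicing gene Zranb2, had 46.9 ± 8.43 FPKM. Mirlet7c2, of the let-7 family that rises as cells mature, had 18.5, 19.8 and 21.8 FPKM. For each of these genes 1 mature product, from RefSeq on GRCr8, is shown to identify it, with the seed (bases 2 to 8) in capitals. Other arms are left out, and no seed is shared among those shown.
rno-miR-770-5p (chr6:134298094-134298115, plus strand): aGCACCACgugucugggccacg
rno-miR-568 (chr11:70559921-70559940, minus strand): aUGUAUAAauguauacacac
rno-miR-186-5p (chr2:249241664-249241685, plus strand): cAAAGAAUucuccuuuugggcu
rno-let-7c-5p (chr7:118683636-118683657, plus strand): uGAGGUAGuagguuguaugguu

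The promoters of genes above and below 0.5 FPKM differed in base composition. RefSeq windows on GRCr8, from 250 bases before to 50 after the start, were matched by symbol to 9393 protein-coding genes above 0.5 FPKM and 3282 below it. The median window of the genes above the floor had 61.3% G and C and 21 CpG pairs, against 51.7% and 5 CpG pairs for the others. The letters TATAAA, on either strand, were in 6.31% of the windows of genes above the floor, in 19.4% of those of the others and in 14.3% of all 24206 windows. Among the 200 highest genes, TATAAA was in 15.5% and the median CpG count was 24. The TATAAA share of these genes was near that of all windows. The letters TGACGTCA, the cyclic AMP response element, were in 3.26% of the windows of genes above the floor and 0.914% of the others.

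The vehicle libraries resembled each other closely. Over 10214 genes at 5 FPKM or more, the median SD of log2 FPKM was 0.077, and the median variance of the fragments was 1.98 times that of counting alone. At 20 FPKM or more, 19 of 4426 protein-coding genes with a symbol had an SD above 0.5 and 10 above 1. The steadiest were Rap1gap, which inactivates a small GTPase (37.1 FPKM in each library), AABR07057423.1, the demethylase-like Jmjd1c and Maged2. The largest departures were switches between a low and a high level. Rplp2, a ribosomal stalk protein, was listed at 5.25, 4.05 and 258 FPKM. The calpain subunit Capns1 had 62.1, 1.84 and 1.52 FPKM, and the selenoprotein Selenow 313, 12.3 and 305 FPKM. Next to these stood LOC103692570, named as like dihydropyrimidinase-related protein 5 (57.6, 1.20 and 48.8 FPKM), and LOC100910575, named as like a serine-threonine kinase receptor-associated protein (1.46, 41.3 and 35.8 FPKM). In each of these 5 genes the low and the high libraries were far apart, and the low libraries were not the same for all 5.

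For genes with more than 1 row under a shared or derived name, sums can be set beside the rows. The ribosomal gene Rps27a has a row on chromosome 14 with 4141, 3720 and 1671 fragments and another on chromosome 5 with 1562, 1988 and 3354. Their sums, 5703, 5708 and 5025, varied 1.10-fold per fragment sequenced, while the FPKM of the rows varied 2.34-fold and 2.27-fold. The same was seen for Rps19 (797, 141 and 195 fragments) and Rps19l2 (123, 616 and 758), whose sum, 920, 757 and 953 fragments, varied less. In these sets the rows varied between libraries more than their sum. The rows were themselves among the widest spreads of these libraries, so this was favoured by the choice and nothing is concluded from it. In Rpl7a, with a pair of rows on chromosome 3, the sum itself was higher in replicate 3, at 765 against 419 and 455 fragments. ND4 and an unnamed model on chromosome 20 were also chosen after their values were seen, since they moved in opposite directions. ND4 had 4879, 7319 and 6602 fragments and the model 9579, 4023 and 4278. Levels of single rows of such genes are uncertain. The sequences of the rows were not compared, and whether they share fragments was not tested.

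**Figure D4:**
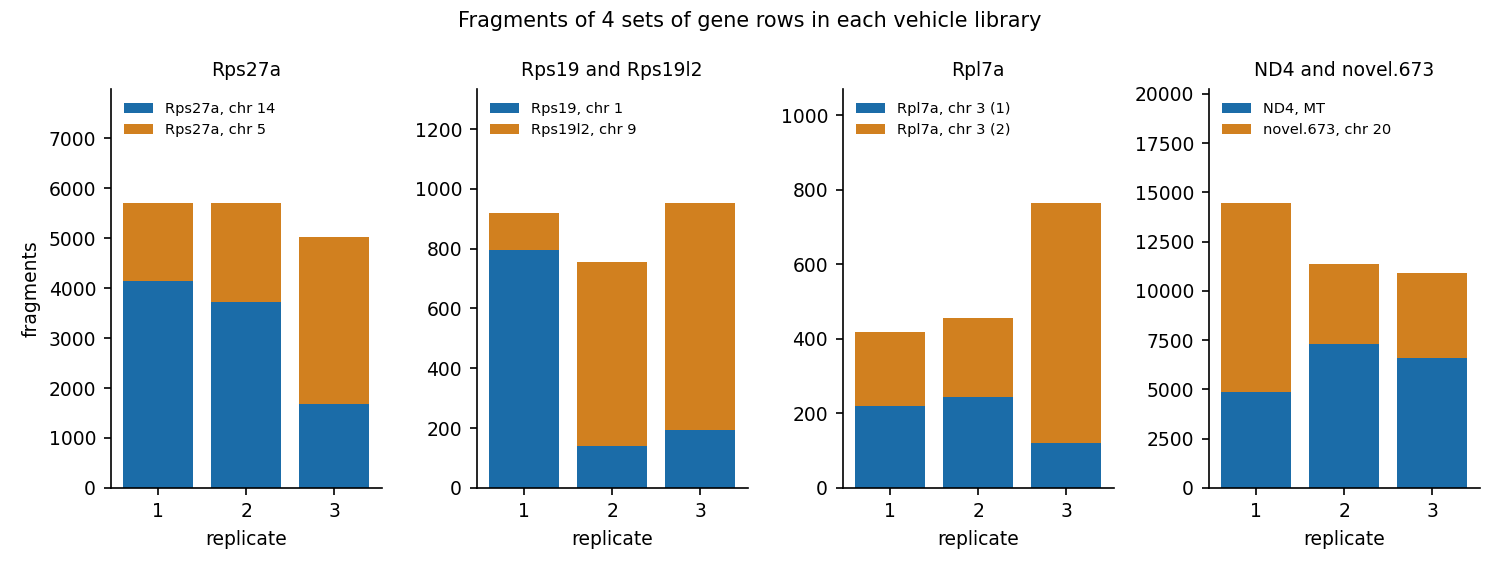
Fragments counted on 4 sets of gene rows in each vehicle library, stacked from 0. For Rps27a and for Rps19 with Rps19l2 the stacks are close in height (5025 to 5708 and 757 to 953 fragments) while the split between the rows changes.

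Values at 0 were also counted by position. Of 912 protein-coding genes whose span lies inside that of another gene, 341 (37.4%) were listed at 0, against 22.0% of the other 21338. The ribosomal genes Rpl10a and Rpl23a, which every cell uses, were listed at 0 in all 3 libraries and lie inside Tead3 and Tlcd1, while Rpl30l1, the other ribosomal row at 0, lies inside no gene. Of 87 ribosomal protein rows, 9 were below 5 FPKM, against a median of 179 FPKM.

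The libraries also differed in the immediate early genes, which neurons switch on within minutes of activity, before new protein is made. Calcium entry and kinase signals act on factors already bound at their promoters, and many of the products are themselves transcription factors. The list of 23 was drawn up after this pattern was seen. Egr1, a zinc finger factor (chr18:27657628-27661429, Rnor_6.0), was listed at 12.6, 14.3 and 52.2 FPKM, on 606, 665 and 2366 fragments. Fos, a partner of Jun in the AP-1 complex, had 9.85, 11.1 and 23.8 FPKM. Arc, a synaptic protein induced by activity, had 1.31, 1.49 and 5.14 FPKM. Replicate 3 was the high library for all 3 genes, and the other two libraries lay close together. Npas4, a neuronal factor that responds to calcium, had 0.424, 0.982 and 3.31 FPKM, and Fosb 0.227, 0.126 and 1.51 FPKM on 13, 7 and 82 fragments.

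Because the list was drawn up after this pattern was seen, its counts describe the list, and setting them beside all genes is no test. Of the 23 genes, 20 were highest in replicate 3, whereas 36.4% of all genes at 0.5 FPKM or more were. In 9 genes, replicate 3 was at least 2-fold above the mean of the other two, as were 2.96% of all genes at that floor. Beside Egr1 (3.88-fold), Fos (2.27-fold), Arc (3.67-fold), Npas4 (4.71-fold) and Fosb (8.60-fold), these were Egr2 (3.35-fold), Egr3 (2.51-fold), Egr4 (4.29-fold) and the nuclear receptor Nr4a1 (2.57-fold). The median ratio over the 23 genes was 1.39. Some members differed little or were highest elsewhere. Nr4a2 was at 4.39, 4.35 and 4.32 FPKM, the growth factor Bdnf at 3.05, 2.01 and 2.75 FPKM, and Atf3, a stress factor, at 2.78, 2.88 and 2.59 FPKM. Jun had 46.3, 43.1 and 54.2 FPKM and Nr4a3 42.9, 43.8 and 51.0 FPKM, high in every library. Without replicate 3, the median level of the list was 5.80 FPKM, against 7.21 FPKM over all libraries.

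**Figure D5:**
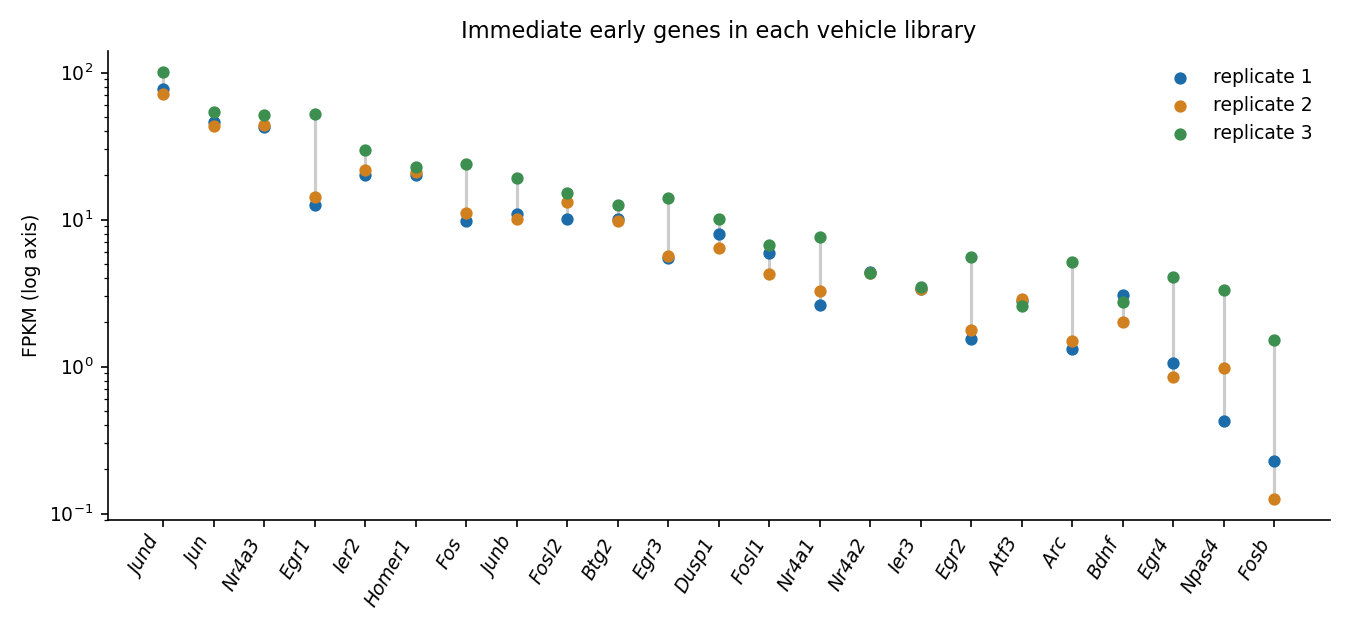
Level of 23 immediate early genes in each vehicle library, in FPKM on a log axis, in order of their mean. Replicate 3 is the highest point for 20 genes; Egr1 spans 12.6 to 52.2 FPKM, while Nr4a2 and Ier3 hardly differ.

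Promoters of this list were read for the CArG box, the binding sequence of serum response factor, and for TGACGTCA, on both strands. Windows were found for 15 of the 23 genes, not for Fos, Arc or Egr3. CArG letters were in 2 of them (13.3%), Egr1 and Egr2, against 1.65% of all windows, and TGACGTCA in 4 (26.7%), against 1.91%. Some other small lists had similar shares, such as CArG letters in 2 of 14 windows (14.3%) of genes of other organs and TGACGTCA in 2 of 10 windows of other transmitter genes, so nothing particular to the immediate early list is read from them. A match of letters is a description and not a site of binding. The windows of Egr1 and Egr2, the genes of the list with CArG letters, are shown 5′ to 3′ on the strand of the gene, with the CArG letters in capitals. Egr1 holds 2 matches and Egr2 holds 1, all before the start.
Egr1 (GRCr8 chr18:26736828-26737127, plus strand): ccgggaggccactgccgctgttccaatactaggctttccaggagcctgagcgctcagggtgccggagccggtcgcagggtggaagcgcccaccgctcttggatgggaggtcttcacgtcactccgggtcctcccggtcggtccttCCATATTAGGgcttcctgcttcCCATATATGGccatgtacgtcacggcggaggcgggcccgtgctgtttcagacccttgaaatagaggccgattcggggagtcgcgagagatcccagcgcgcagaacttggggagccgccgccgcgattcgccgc
Egr2 (GRCr8 chr20:21054392-21054691, minus strand): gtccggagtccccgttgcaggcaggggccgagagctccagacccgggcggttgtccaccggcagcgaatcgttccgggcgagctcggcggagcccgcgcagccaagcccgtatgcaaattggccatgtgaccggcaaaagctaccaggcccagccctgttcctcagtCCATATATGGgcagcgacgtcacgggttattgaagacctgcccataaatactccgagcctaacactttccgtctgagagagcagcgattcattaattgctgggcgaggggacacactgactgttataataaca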

How the data were processed

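Libraries of 3 vehicle cultures were described; the members and gene lists were chosen with earlier results of these data known. Poly(A) RNA was sequenced by the authors, and the submitters' processing notes name CASAVA, HISAT2 2.0.5, StringTie 1.3.3b, featureCounts 1.5.0-p3, DESeq2 1.20.0 and the build Rnor_6.0. The deposited values are FPKM, computed by the authors per gene, including gene models they assembled. Multiplied by gene length, the values were whole multiples of one step in each library (within 0.05 fragments), which gave 14527524 to 15360559 fragments per library. Intervals were not computed, and depth limits values of a few fragments. The level of a list is the median FPKM of its members found, per library, then mean ± SD over 3. No contrast exists in 1 group, so no test was run. The floor used for counts was a mean of 0.5 FPKM.

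Genes were named by a rule: the 20 highest nuclear genes of at least 200 bases, the 3 highest mitochondrial genes and of each other biotype, the 3 highest and 2 lowest of each list, the 6 label genes, the pairs, and the 8 widest and 4 narrowest spreads at 20 FPKM or more. Other genes named, and the lists of immediate early, metallothionein, receptor and calcitonin family genes, were chosen after their values were seen. Sequences came from RefSeq (GRCr8), matched by symbol. Python 3.11.15, pandas 2.3.3, numpy 2.4.6 and matplotlib 3.10.9 were used, and the calculations were tested on simulated data. Columns of the treated cultures were not used, and a few genes are not reported here.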

Additional observations from a re-analysis of the deposited data

How the results depend on the processing

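Leaving out each library in turn gave 96 values, none more than 1 SD from the value over 3 libraries. For a mean of library values, dropping 1 of 3 cannot give a larger move by construction. Counts of genes, taken again from the mean FPKM, are not bound in this way. Of 171 alternatives for the differences from the neuronal list, 169 kept the sign. The glutamatergic minus GABAergic difference turned from 0.22 to -0.17 with members of at least 0.5 FPKM only, and the cause was not tested. The astrocyte list minus the neuronal list turned from 0.47 to -0.31 and -0.20 with a geometric mean over members (pseudocount 0.1 and 1), and the cause was not tested. With the same settings the oligodendrocyte precursor list was at -1.75 and -1.73, the mature oligodendrocyte list at -5.74 and -4.71, endothelium at -8.46 and -6.31, pericytes at -6.24 and -4.98, and G2/M genes (pseudocount 1) at -3.51. With members of at least 0.5 FPKM only, mature oligodendrocytes were at -3.88, endothelium at -6.84 and pericytes at -5.01. By fragments not divided by length, microglia were at -6.14, precursors at -2.03, mature oligodendrocytes at -7.56, pericytes at -7.87 and G2/M genes at -3.88. A pseudocount of 1 gave log2 ratios of 1.74 for Grin2b to Grin2a, -2.54 for Dlg3 to Dlg4, -3.29 for Slc17a6 to Slc17a7 and -0.92 for Scn3a to Scn2a. By fragments, protein-coding genes held 97.5%, the mitochondrial genome 5.44%, microRNA genes 0.0252% and chromosome 1 10.8%, and 9 of the 20 highest nuclear genes remained. With genes of at least 200 bases, these shares were 96.9% for protein-coding genes, 6.78e-05% for microRNA genes and 10.1% for chromosome 1. The median SD was 0.0591 at 20 FPKM or more. Of 111 alternatives for other lists, 45 moved and none changed sign. The immediate early list, tried after seeing the data, ranged from 5.80 to 7.99 FPKM without 1 library. No paired analysis was possible because the values come from 1 group and from no test.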
